A study of Mus musculus with 4 samples.

Results

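A set of 10 genes of epithelial defence and inflammation was followed in the mouse stomach, among 46095 gene symbols counted. They were taken by name, with earlier results of these data known: the secreted lectins *Reg3b* and *Reg3g*, the iron-binding carrier *Lcn2*, the serum amyloids *Saa1* and *Saa3*, the calprotectin subunits *S100a8* and *S100a9*, the oxidase *Duox2* with its maturation factor *Duoxa2*, and the inducible nitric oxide synthase *Nos2*. RNA of the stomach was sequenced from C57BL/6 mice 12 weeks old, with 2 samples of each of 2 genotypes. The WT samples were Myc fl/fl littermates without Cre. The MYC-KI samples were *Atp4b*-cre; MycOE mice, in which Cre driven by the *Atp4b* promoter of acid-secreting parietal cells switches on a human c-Myc transgene. These mice were *Atp4b*-cre; Myc fl/+, so both genotypes carried the conditional Myc allele, on 1 chromosome in MYC-KI and on both in WT. The labels give the tissue as stomach, with no region, and do not say whether each sample came from 1 mouse. With 2 samples per genotype the p-values measure only the spread between these samples. The transgene is human, so the row of mouse *Myc*, at 1062 and 759 counts in WT against 735 and 1091 in MYC-KI, does not check the genotype.

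Epithelia that face microbes secrete small lectins and cationic proteins, bind the iron and other metals that bacteria need, and release reactive oxygen and nitric oxide at their surface. Many of these genes are switched on together in inflamed or infected mucosa, where IL-17, IL-22 and IL-6 family cytokines act through STAT3, NF-kB and C/EBP transcription factors. In the healthy corpus of the stomach acid does part of this work, and most of the genes are known for low expression there.

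The match of gene names to counts was examined first. In the deposited table r between the genotypes, across genes, which are not independent replicates, was 0.524. Assigning the MYC-KI counts in row order to the names sorted by character code, capitals before lower case, gave 0.985. All values here come from the re-sorted table. *Duox2* and *Duoxa2* stand in the same row in both orders, while the other 8 members change rows, so their MYC-KI values rest on the re-sorting. In windows of 61 rows around the members, the re-sorted order gave r of 0.905 to 0.987. Library totals were 30260305 to 41463647 counts. All 6 parietal markers fell, with summed levels of 10490 and 10640 TMM-normalized CPM in WT and 184 and 248 in MYC-KI. WT replicate 2 stood apart from the other 3 samples in *Xist*, with 17846 counts against 85 to 201, and in the Y-linked gene *Ddx3y*, with 5 counts against 1861 to 2623. The study used male and female mice, and the labels do not give the sex of these samples. The part of this difference in the results was not tested. In bulk tissue, fewer cells of a type and less RNA per cell cannot be told apart.

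For edgeR's quasi-likelihood test 8 members had enough counts, and *Saa1* and *Saa3* had not. A gene was called at a Benjamini-Hochberg adjusted p under 0.05 together with more than a 1.5-fold change. By this rule 0 of the 8 members were called, against 10.7% of all 17643 genes tested (5.65% higher and 5.08% lower in MYC-KI). At an unadjusted p under 0.05 there were 3 members, *Reg3b*, *Reg3g* and *Nos2*, all with positive log2 fold changes, against 34.1% of all genes (17.7% higher). DESeq2 gave an adjusted p for 9 members and called 2 of them, *Reg3b* and *Reg3g*, both higher in MYC-KI, against 17.7% of all genes called in either direction and 8.23% called higher. The genotypes did not overlap in *Reg3b*, *Reg3g*, *S100a8* and *Nos2*, all higher in MYC-KI, and such separation was seen in this direction in 33.3% of all genes, and in the other direction in 31.5% of genes and 0 members. The members' fitted log2 fold changes were positive in 5 and negative in 3, with a median of 0.91 beside 0.01 over all genes tested. The fitted directions were thus mixed. Per kilobase of the longest coding transcript, the mean WT levels ran from 14.7 CPM for *Duox2*, 11.9 for *Duoxa2*, 6.62 for *Reg3b*, 6.22 for *S100a9* and 5.78 for *Reg3g* down to 1.13 for *Lcn2* and to 0.356 or less for the other 4, and the samples' ranges of the first 5 overlapped. In MYC-KI *Reg3b* stood at 148 CPM per kb and *Reg3g* at 108, ahead of *Duox2* at 8.44, *S100a9* at 8.09 and *Duoxa2* at 7.17. The 2 *S100a9* samples spanned the levels of both DUOX genes.

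**Figure D1:**
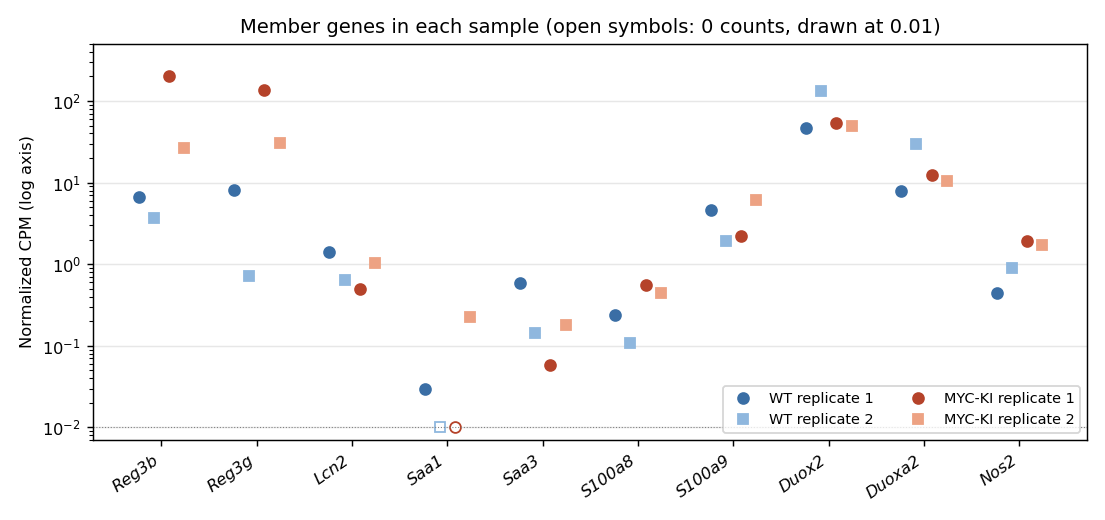
Normalized CPM, on a log axis, of the 10 members in each of the 4 samples; circles are replicate 1, squares replicate 2, blue WT and red MYC-KI, and open symbols at 0.01 mark 0 counts. *Reg3b* and *Reg3g* separate the genotypes most, *Duox2* and *Duoxa2* are highest in WT replicate 2, and *Saa1*, *Saa3* and *S100a8* lie below 1 CPM in every sample.

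The 2 lectins gave the largest differences. *Reg3b* encodes a bactericidal C-type lectin of gut epithelium, and lay on chr6:78370657-78373466 (GRCm38, plus strand). Its counts were 224 and 103 in WT and 6959 and 1202 in MYC-KI, in order of replicate number. After normalization these were 6.675 and 3.69 CPM in WT and 205 and 26.9 CPM in MYC-KI. Both MYC-KI samples were above both WT samples, and MYC-KI replicate 1 was far above replicate 2. The means were 5.18 ± 2.11 and 116 ± 126 CPM (SD, n = 2 each), a 22.3-fold difference, with a log2 fold change of 4.48 (SE 1.13) and an adjusted p of 0.0726 in edgeR. DESeq2 gave an adjusted p of 0.00356.

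*Reg3g*, which encodes a lectin directed at Gram-positive bacteria, lay on chr6:78466269-78468872 on the minus strand, 92802 bases beyond *Reg3b*. It had 275 and 20 counts in WT against 4608 and 1349 in MYC-KI, or 8.19 and 0.717 CPM and 136 and 30.2 CPM. The genotypes again did not overlap, but the 2 WT samples were themselves far apart. The log2 difference between the WT replicates was 3.34, larger in size than in 99.7% of all genes. The means of 4.46 ± 5.29 and 83 ± 74.7 CPM (SD, n = 2 each) gave a log2 fold change of 4.20 (SE 1.35) and an adjusted p of 0.111 in edgeR, and 0.0403 in DESeq2. Between the MYC-KI replicates the log2 difference was 2.93 for *Reg3b*, larger than in 98.3% of genes, and 2.17 for *Reg3g*, larger than in 96.9%. Per kilobase of the longest coding transcript, *Reg3b* stood at 0.80 and 5.07 times *Reg3g* in WT and at 1.49 and 0.88 times in MYC-KI, so neither lectin was the more abundant in all samples.

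The pair is shown by the 250 bases before each RefSeq start, because these genes lie together and differed in the same direction. RefSeq promoters (GRCm38.p6) were held for 9 of the 10 members, all but *Nos2*. Capitals mark a match to TTCNNNGAA, a STAT motif, in *Reg3b* and to an NF-kB motif in *Reg3g*. Both strands were searched over 250 bases before to 50 after the start. The RefSeq start of *Reg3b* lies inside the GENCODE gene given here, so most of its stretch overlaps that gene.
Reg3b upstream (chr6:78370635-78370884, plus strand): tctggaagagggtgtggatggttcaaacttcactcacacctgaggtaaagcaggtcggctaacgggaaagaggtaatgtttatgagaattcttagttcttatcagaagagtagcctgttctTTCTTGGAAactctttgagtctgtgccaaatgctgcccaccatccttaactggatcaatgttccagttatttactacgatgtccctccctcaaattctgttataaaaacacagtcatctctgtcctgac
Reg3g upstream (chr6:78468875-78469124, minus strand): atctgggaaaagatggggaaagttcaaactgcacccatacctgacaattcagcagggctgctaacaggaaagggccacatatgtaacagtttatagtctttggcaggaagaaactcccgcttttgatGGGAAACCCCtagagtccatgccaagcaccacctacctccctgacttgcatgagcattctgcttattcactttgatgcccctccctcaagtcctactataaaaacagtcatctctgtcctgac
Over the 300-base promoters the 2 sequences were 70.2% identical across 292 aligned columns, with 29 bases as the longest identical stretch. The STAT match begins 129 bases before the *Reg3b* start and the NF-kB match 123 bases before that of *Reg3g*. Of 32851 promoters of this length 8.3% held the STAT motif and 8.5% the NF-kB motif, so a match is a description only. The E-box CACGTG bound by MYC was in 0 of the 9 member promoters and in 7.2% of all promoters. The transcripts of the 2 genes were 72.4% identical, with an identical stretch of at most 35 bases, so reads that fall in it could be shared.

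Among the other REG lectins, 0 of the 3 tested were called by edgeR or by DESeq2 and 0 had an unadjusted p under 0.05, with a median log2 fold change of 1.21. Without MYC-KI replicate 1 edgeR called 1 of the 3, *Reg4*, lower. *Reg1*, a secreted lectin of regenerating and intestinal-type mucosa, had 116 and 39.4 CPM in WT and 340 and 39.6 CPM in MYC-KI, a log2 fold change of 1.29 (SE 1.12) with an adjusted p of 0.473. Its genotypes overlapped, and the low sample of each had nearly the same level. *Reg4* was at 4.77 and 4.66 CPM in WT and at 8.96 and 0.291 CPM in MYC-KI. *Reg3a* had 23 and 1 counts in WT against 59 and 0 in MYC-KI, so in both *Reg3a* and *Reg1* replicate 1 exceeded replicate 2 in both genotypes, as it did in *Reg3b* and *Reg3g*. Per kilobase, *Reg3b* stood at 0.0667 and 0.108 of the level of *Reg1* in WT and at 0.698 and 0.785 in MYC-KI, so the share of *Reg3b* separated the genotypes while *Reg1* itself did not.

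Intestinal markers followed the same order of replicates. In 8 of the 9 markers, replicate 1 was above replicate 2 in both genotypes, and the list summed to 1225 and 852 CPM in WT and to 1451 and 874 CPM in MYC-KI. Of these sums *Lgals4* alone held 530 and 455 CPM in WT and 700 and 632 CPM in MYC-KI. Every other marker was lower in MYC-KI replicate 2 than in WT replicate 2. No intestinal marker was at 0 in any sample, and 0 of the 9 were called by edgeR or by DESeq2, with 1, *Lgals4*, at an unadjusted p under 0.05. The 0 turns on the scaling, since *Lgals4* was called higher with libraries scaled by their totals. *Cdx2* had 10.2 and 10.4 CPM in WT and 22.3 and 2.62 CPM in MYC-KI, so its MYC-KI samples lay on both sides of WT. *Cdh17*, an adhesion molecule of intestinal epithelium, had 137 and 38.1 CPM in WT and 169 and 9.29 CPM in MYC-KI. *Fabp1*, a fatty acid carrier of enterocytes, had 35.7 and 8.85 CPM in WT and 50.3 and 4.05 CPM in MYC-KI. In both genes the replicates differed in the direction seen for the lectins and the genotypes overlapped. The part of intestinal-type cells in the lectin values was not tested. Without MYC-KI replicate 1 the log2 fold change of *Reg3b* was 2.37 in edgeR, and without MYC-KI replicate 2 it was 5.29. In a fit that leaves out a MYC-KI sample, the spread between the MYC-KI samples is not measured. That holds for every call given here from such a fit. *Reg3g* had log2 fold changes between 2.74 and 6.85 over the 4 fits that each left out a sample.

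**Figure D2:**
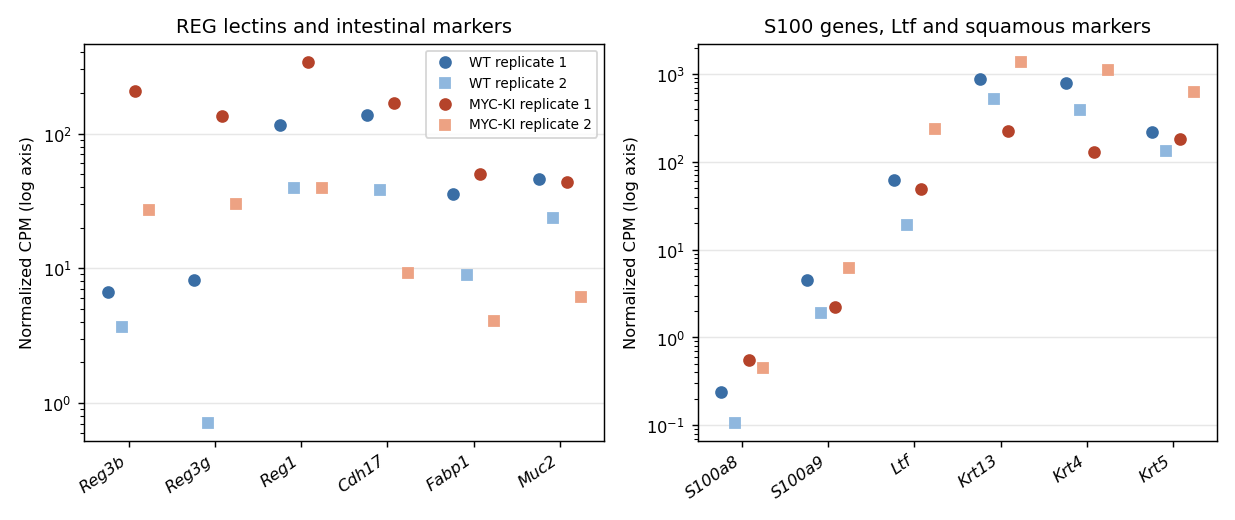
Normalized CPM, on a log axis, in each sample, with circles for replicate 1 and squares for replicate 2, blue for WT and red for MYC-KI. On the left, replicate 1 is above replicate 2 within each genotype for the lectins and for 3 intestinal markers, while only *Reg3b* and *Reg3g* separate the genotypes; on the right, *S100a9*, *Ltf* and 3 squamous keratins are highest in MYC-KI replicate 2.

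Calprotectin is a pair of S100 proteins that bind zinc, manganese and calcium and make up much of the protein in neutrophils, and squamous epithelium also makes them. *S100a8* (chr3:90668978-90670035, plus strand) had 8 and 3 counts in WT against 19 and 20 in MYC-KI, which is 0.238 and 0.107 CPM and 0.560 and 0.448 CPM. The genotypes did not overlap, at counts that leave a wide error. The difference was 2.83-fold, with a standard error of 0.61 on the log2 scale and an adjusted p of 0.172 in edgeR. *S100a9* (chr3:90692632-90695721, minus strand), 22596 bases away, had 153 and 53 counts in WT against 76 and 275 in MYC-KI, or 4.56 and 1.90 CPM and 2.24 and 6.16 CPM. Its genotypes overlapped, and the log2 fold change of 0.38 (SE 0.68, adjusted p = 0.738) changed sign without WT replicate 2, to -0.12, and without MYC-KI replicate 2, to -0.53. Per kilobase *S100a9* stood at 17.9 and 16.5 times *S100a8* in WT and at 3.75 and 12.9 times in MYC-KI, the lowest ratio being in MYC-KI replicate 1. The 2 subunits thus were not in a fixed ratio.

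The neutrophil markers did not go one way. *Ly6g*, *Ngp*, *Camp* and *Stfa2l1* had 0 counts in all 4 samples, which allows up to 3 counts per library, and *Elane* and *Mpo* had at most 1 count. The 14 markers summed to 69.7 and 31.7 CPM in WT and to 54.9 and 239 CPM in MYC-KI, and most of this was lactoferrin, *Ltf*, which mucosal glands also secrete, at 61.5 and 19.0 CPM and 49.5 and 234 CPM. Of the 5 neutrophil markers tested 0 were called higher by edgeR or DESeq2, with 1, the chemokine receptor *Cxcr2* at 13 and 9 counts in WT against 28 and 92 in MYC-KI, at an unadjusted p under 0.05. The receptor *Csf3r* had 38 and 45 counts in WT against 77 and 64 in MYC-KI. Of the 5, 2 were called lower, *Retnlg* with 40 and 76 counts in WT against 1 and 0 in MYC-KI, and the gelatinase *Mmp9* with a log2 fold change of -1.96 (adjusted p = 0.0462), lost without MYC-KI replicate 1 (adjusted p = 0.0532) and without MYC-KI replicate 2 (0.066). *S100a9* and *Ltf* were both lowest in WT replicate 2 and highest in MYC-KI replicate 2. Markers of the squamous forestomach were also highest in MYC-KI replicate 2 in 13 of 14 genes, with summed levels of 3061 and 1781 CPM in WT and of 1122 and 5131 CPM in MYC-KI, none at 0. Of the 14, edgeR called 0, with 1 at an unadjusted p under 0.05, DESeq2 called 1, *Ivl*, edgeR without MYC-KI replicate 1 called 5, all higher, and edgeR without MYC-KI replicate 2 called 1 higher and 1 lower. *Krt13*, a keratin of stratified epithelium, had 886 and 512 CPM in WT and 223 and 1368 CPM in MYC-KI. Their part in the *S100a9* values was not tested. Of the 13 other S100 genes tested edgeR called 0, with 4 at an unadjusted p under 0.05, and DESeq2 called 2, *S100a1* and *S100a6*, with a median log2 fold change of 0.28 in edgeR. Without MYC-KI replicate 1 edgeR called 4 of them and with libraries scaled by their totals 3, all higher, and without MYC-KI replicate 2 it called 0. The most abundant were *S100a6*, with a log2 fold change of 0.72 (adjusted p = 0.0737), and *S100a11*, with 0.57 (adjusted p = 0.0329), which is under the fold threshold.

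*Lcn2* encodes lipocalin 2, which captures bacterial siderophores, and lay on chr2:32384633-32388252 (minus strand). It had 48 and 18 counts in WT against 17 and 46 in MYC-KI, or 1.43 and 0.645 CPM and 0.501 and 1.03 CPM. The genotypes overlapped, each having its higher sample above the lower sample of the other. The log2 fold change of -0.43 (SE 0.63, adjusted p = 0.675) became 0.25 without WT replicate 1. Serum amyloid A proteins are acute phase carriers of lipid. *Saa3* (chr7:46711998-46715700, minus strand), made in extrahepatic tissue, had 20 and 4 counts in WT against 2 and 8 in MYC-KI. *Saa1* (chr7:46740497-46742980, minus strand), the main liver form, had 1 and 0 counts in WT against 0 and 10 in MYC-KI. *Saa2*, whose transcript was 93.5% identical to that of *Saa1* with an identical stretch of 76 bases, had 0 counts in 3 samples and 12 in MYC-KI replicate 2, so the split of reads between *Saa1* and *Saa2* is uncertain. With all genes kept, edgeR gave an adjusted p of 0.545 for *Saa1* and of 0.458 for *Saa3*. A difference in these amyloids was not detectable at this depth.

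The C/EBP motif TTGCNNAA was held, on one of the strands, by 4 of the 9 member promoters, against 10.8% of all promoters. They are shown as the only motif of the 5 searched that more than 1 member promoter held, and capitals mark the match. The promoters of *S100a8*, *Reg3b*, *Reg3g*, *Duox2* and *Duoxa2* held no such match. The *Lcn2* stretch lies before the RefSeq start but inside the GENCODE gene given here. None of these 4 genes was called, and both amyloids were under the filter.
Lcn2 (chr2:32387928-32387975, minus strand): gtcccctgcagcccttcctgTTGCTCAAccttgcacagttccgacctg
Saa1 (chr7:46743135-46743182, minus strand): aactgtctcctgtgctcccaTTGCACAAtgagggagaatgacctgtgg
Saa3 (chr7:46715748-46715795, minus strand): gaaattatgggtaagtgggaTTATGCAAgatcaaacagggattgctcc
S100a9 (chr3:90695930-90695971, minus strand): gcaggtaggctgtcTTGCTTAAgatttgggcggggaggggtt
The matches begin, from the RefSeq starts, 216, 182, 99 and 236 bases before *Lcn2*, *Saa1*, *Saa3* and *S100a9*.

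*Duox2* makes hydrogen peroxide at the apical surface of epithelia and *Duoxa2* carries it out of the endoplasmic reticulum. The 2 genes lie head to head on chromosome 2, *Duox2* at 122279247 to 122298449 on the minus strand and *Duoxa2* at 122298900 to 122302885 on the plus strand, with 450 bases between them. *Duox2* had 1576 and 3717 counts in WT against 1834 and 2191 in MYC-KI, or 47.0 and 133 CPM and 54.1 and 49.1 CPM. *Duoxa2* had 267 and 833 counts in WT against 423 and 463 in MYC-KI, or 7.96 and 29.9 CPM and 12.5 and 10.4 CPM. In both genes the MYC-KI samples lay between the 2 WT samples, and WT replicate 2 alone was high. The log2 fold changes were -0.80 (SE 0.51, adjusted p = 0.336) for *Duox2* and -0.73 (SE 0.65, adjusted p = 0.486) for *Duoxa2* in edgeR. Without WT replicate 2 they became 0.13 and 0.52.

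The ratio of the pair varied less than its level. Per kilobase, *Duox2* stood at 1.54 and 1.16 times *Duoxa2* in WT and at 1.13 and 1.23 times in MYC-KI. Between the WT replicates the log2 difference was larger than in 96.9% of genes for *Duox2* and in 98.4% for *Duoxa2*, whereas between the MYC-KI replicates it was larger than in 36.0% and 55.2%. WT replicate 2 is also the sample that stood apart in *Xist*. *Duoxa2* shares 682 exonic bases with *Duoxa1* on the other strand, and since the sources used here do not say whether strand was used in counting, reads of the 2 genes there cannot be told apart. The promoter of *Duoxa2* held TGAATCA, 168 bases before its start. It matches the AP-1 motif as searched, TGANTCA with any middle base, which 7.8% of promoters held. *Duox1*, the paralog, had 5.75 and 4.62 CPM in WT and 2.92 and 11.8 CPM in MYC-KI, and so followed the squamous markers in being highest in MYC-KI replicate 2. Per kilobase *Duox2* exceeded it between 3.59 and 24.8 times.

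*Nos2* (chr11:78920787-78960254, plus strand) encodes the inducible enzyme that makes nitric oxide from arginine in macrophages and inflamed epithelium. It had 15 and 25 counts in WT against 66 and 76 in MYC-KI, or 0.447 and 0.896 CPM and 1.95 and 1.70 CPM. The genotypes did not overlap and the MYC-KI samples lay close together. The means were 0.672 ± 0.318 and 1.82 ± 0.173 CPM (SD, n = 2 each), a 2.72-fold difference, with a log2 fold change of 1.44 (SE 0.49) and an adjusted p of 0.122 in edgeR and of 0.110 in DESeq2. Leaving out 1 sample at a time gave log2 fold changes of 1.02 to 2.02, with an adjusted p of 0.161 at the lowest. Markers of macrophages, cells known for this enzyme, moved the other way, with 8 of 10 tested lower and 1, *Cd14*, higher, and with summed levels of 387 and 402 CPM in WT and 168 and 159 CPM in MYC-KI. Their part in the *Nos2* values was not tested.

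**Figure D3:**
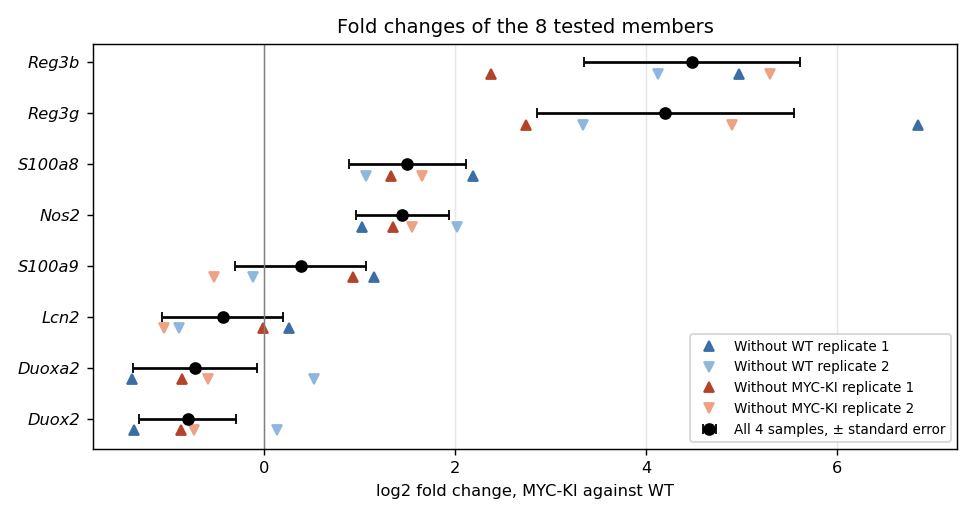
Fitted log2 fold change of MYC-KI against WT for the 8 tested members; black points and bars give the fit to all 4 samples with its standard error, and triangles the fits that leave out 1 sample. *Reg3b*, *Reg3g*, *S100a8* and *Nos2* stay above 0 in all 5 fits, and the other 4 cross 0.

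Genes of the same pathways were read from the same fit. Among 14 other mucosal antimicrobial genes tested 2 rose, 1 fell and 11 did not pass, with a median log2 fold change of -0.03. Without MYC-KI replicate 2 there were 3 higher and 2 lower. *Pigr*, which carries dimeric IgA across epithelium, had 572 and 428 CPM in WT and 2042 and 1263 CPM in MYC-KI, a log2 fold change of 1.72 (SE 0.29, adjusted p = 0.0377). *Wfdc2*, a secreted protease inhibitor, rose by 1.36 on the log2 scale (SE 0.14, adjusted p = 0.0198), and *Lyz2*, the lysozyme of macrophages, had a log2 fold change of -1.60 (SE 0.08, adjusted p = 0.00975). *Lypd8*, which hinders flagellated bacteria and was among the most abundant, had 0.06 (adjusted p = 0.895).

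Of the 10 acute phase genes tested 1 rose and 1 fell, with a median of -1.05, and at an unadjusted p under 0.05 there were 2 higher and 5 lower. DESeq2 called 2 higher and 3 lower, edgeR without MYC-KI replicate 2 also 2 and 3, and edgeR without MYC-KI replicate 1 called 2 higher and 0 lower. *Lrg1*, a secreted glycoprotein induced by IL-6 family cytokines, had 13.7 and 11.2 CPM in WT and 76.5 and 76.8 CPM in MYC-KI, a log2 fold change of 2.62 (SE 0.13, adjusted p = 0.00975). Its genotypes did not overlap, whereas those of *Lcn2*, *Saa1* and *Saa3* did. The copper carrier *Cp* had a log2 fold change of -1.82 (SE 0.34, adjusted p = 0.0435), lost without MYC-KI replicate 1 (adjusted p = 0.0627). *C3*, the most abundant of the list, stood at -1.70 (adjusted p = 0.137). *Cp* and *C3* were both highest in WT replicate 2 and lowest in MYC-KI replicate 1, and so were the 7 adipocyte markers in sum, at 230 and 509 CPM in WT and 45.4 and 100.3 CPM in MYC-KI, with 2 of the 7, *Fabp4* and *Lep*, called lower. At an unadjusted p under 0.05 there were 6 lower, DESeq2 called 5 lower, and edgeR called 6 lower without MYC-KI replicate 2 and 1 lower without MYC-KI replicate 1, where *Lep* was lost (adjusted p = 0.0702). *Adipoq* and *Lep*, markers of fat cells, were at 0 in MYC-KI replicate 1. The part of fat cells in these values was not tested.

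Of the 13 other oxidase and peroxidase genes tested 1 rose and 1 fell, with a median of 0.50. DESeq2 called 2 higher and 3 lower, and at an unadjusted p under 0.05 in edgeR there were 3 higher and 3 lower. The genes called by edgeR were the 2 subunits of phagocyte cytochrome b558, which moved apart. *Cyba*, shared with the epithelial oxidase NOX1, rose by 0.74 on the log2 scale (SE 0.09, adjusted p = 0.0236). *Cybb*, of macrophages and neutrophils, had -1.39 (SE 0.18, adjusted p = 0.0262). Of the 11 genes of nitric oxide and arginine 2 rose and 0 fell in edgeR, with 1 lower at an unadjusted p under 0.05 and 1 lower in DESeq2, in both cases *Nos3*, and the median was -0.20. *Nos1* had 17.8 and 10.2 CPM in WT and 3.18 and 16.5 CPM in MYC-KI. *Arg1* had 16.1 and 14.8 CPM in WT and 3.51 and 17.7 CPM in MYC-KI. Both were below the WT samples in MYC-KI replicate 1 only. *Slc7a2*, at 22.0 and 21.4 CPM in WT and 12.5 and 19.5 CPM in MYC-KI, was below them in both. *Slc7a1*, the cationic amino acid transporter, rose by 0.82 on the log2 scale (SE 0.15, adjusted p = 0.0396) and *Odc1*, which makes polyamines from ornithine and is a known MYC target, by 0.74 (SE 0.11, adjusted p = 0.0316).

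Of a list of inducing cytokines and neutrophil chemokines, 21 of 24 were in the table and 9 could be tested, of which 2 rose and 1 fell, with a median of 0.24. Without either MYC-KI sample there were 1 higher and 1 lower. *Il17a*, *Il17f*, *Il22*, *Tnf* and *Ifng* had 0 counts in all 4 samples. *Il11*, an IL-6 family cytokine, had 12 and 6 counts in WT against 134 and 113 in MYC-KI, a log2 fold change of 3.47 (SE 0.49, adjusted p = 0.0295). *Cxcl5*, a neutrophil attractant made by epithelium, had 0 counts in both WT samples and 16 and 17 in MYC-KI, at least 4.33-fold higher against a floor of 3 counts per library (adjusted p = 0.0497), and was not called without either MYC-KI sample (adjusted p = 0.116 and 0.0837). *Il33*, an alarmin, had a log2 fold change of -0.71 (SE 0.08, adjusted p = 0.0228), which was under the fold threshold, at -0.48, when libraries were scaled by their totals.

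Among 19 receptors 1 rose and 3 fell, with a median of -0.03. Without MYC-KI replicate 1 there were 0 higher and 2 lower, and without MYC-KI replicate 2 there were 2 higher and 4 lower. *Tlr2*, a sensor of bacterial lipoproteins, had a log2 fold change of 1.35 (SE 0.22, adjusted p = 0.0342), lost without MYC-KI replicate 1 (adjusted p = 0.0516). *Il11ra1* had -1.43 (SE 0.09, adjusted p = 0.014), so the receptor of IL-11 fell while its ligand rose. *Il17re*, a chain of the epithelial IL-17C receptor, had -1.35 (SE 0.11, adjusted p = 0.0168), and *Il6st*, the shared chain of IL-6 family receptors, -0.63 (SE 0.11, adjusted p = 0.0407), which was lost without MYC-KI replicate 1 (adjusted p = 0.0552) and with libraries scaled by their totals (0.0663). Of the 18 signal and transcription factors edgeR called 0, with 3 at an unadjusted p under 0.05, and DESeq2 called 1 higher, *Nfkbiz*, and 1 lower, *Cebpd*, with a median of -0.00225 on the log2 scale in edgeR. Without MYC-KI replicate 1 edgeR called 1 of them lower and without MYC-KI replicate 2 it called 1 higher. *Nfkbiz*, an NF-kB cofactor of IL-17 responses, stood at 0.80 (adjusted p = 0.095) and *Cebpd* at -0.75 (adjusted p = 0.0611) in edgeR. *Stat3* stood at 0.19 (adjusted p = 0.212) and *Jak1* at -0.16 (adjusted p = 0.222). Without WT replicate 1 or WT replicate 2, edgeR called 0 of all 17643 genes (3508 and 3384 at an unadjusted p under 0.05), with lowest adjusted p-values over all genes of 0.1995 and 0.227, so no gene could pass and these fits say nothing about the calls of single genes. *Lrg1* had log2 fold changes of 2.78 and 2.49 in them and *Lyz2* of -1.59 and -1.60.

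**Figure D4:**
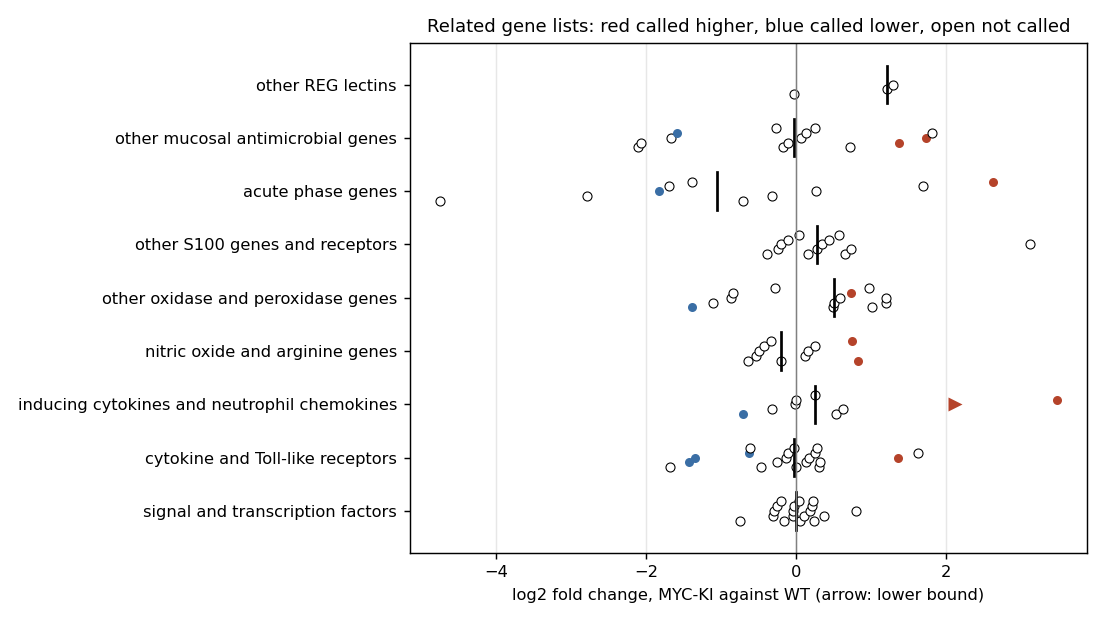
Log2 fold change of MYC-KI against WT, 1 point per tested gene in 9 lists of related genes, with red points for genes called higher, blue for genes called lower, open points for the rest and a vertical bar at each list's median. The arrow is *Cxcl5*, drawn at its lower bound; called genes lie on both sides of 0, and none of the signal and transcription factors is a called gene.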

How the data were processed

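The authors deposited 1 table of raw read counts per gene symbol for the stomach samples, 1 column per sample and without normalization. HISAT2 and mm10 are named in the submitters' processing notes, and the counting tool, annotation and use of strand are not given in the sources used here. The re-sorting of the MYC-KI columns used only the names. The test was that of edgeR 4.0.16 under R 4.3.3 (TMM, filterByExpr on genotype, quasi-likelihood, no covariate, Benjamini-Hochberg adjustment over all genes tested), and with DESeq2 1.42.0, the study's tool, as an alternative. The other alternatives were both other scalings, 2 filters, 2 fold thresholds, the replicate block, the deposited order and leaving out each sample. CPM uses TMM-scaled library sizes, and replicate differences use log2(CPM + 0.1). The floor of 3 counts covers counting error only, while SDs and standard errors include the spread between samples. Positions and transcript lengths are of GENCODE vM21 on GRCm38, and promoters of RefSeq on GRCm38.p6. The 10 members and all lists were chosen with earlier results of these data known. Genes could be named if they were members or, of each list, called (up to 6) or the 2 most abundant, and not all of these are named. *Reg3a*, *Saa2*, *Duox1*, *Duoxa1*, *Cdh17*, *Fabp1*, *Muc2*, *Cdx2*, *Ivl*, *Krt5*, *Cxcr2*, *Csf3r*, *S100a1*, *Nos1*, *Nos3*, *Arg1*, *Slc7a2*, *Adipoq*, *Nfkbiz* and *Cebpd*, and the markers and cytokines at or near 0, were chosen after their values were seen.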

Additional observations from a re-analysis of the deposited data

How the results depend on the processing

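The number of genes called, 1892, became 3234 with DESeq2, 3011 with libraries scaled by their totals, 1113 at an absolute log2 fold change above 1, 114 with the replicate block and 18580 of 22083 tested in the deposited row order, and ranged from 0 (without WT replicate 1 or WT replicate 2, with 3508 and 3384 genes at an unadjusted p under 0.05) to 2608 on leaving out 1 sample. With no filter on low counts 2618 of 26731 tested genes were called, with at least 10 counts in every sample 1981, with the size factors of DESeq2 1852 and without a fold threshold 2274. Scaling by totals moved the median log2 fold change of all genes by 0.22 and the share of calls that were higher from 52.6% to 75.5%. DESeq2 called 46.4% higher and the replicate block 23.7%.

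Of the members 0 were called by edgeR. This became 2 with DESeq2 (against 3234 of 18257 genes) and 2 with no filter on low counts (against 2618 of 26731). The latter were *Reg3b* (adjusted p = 0.0117, edgeR) and *Reg3g* (0.03). In the deposited row order it became 6, where 18580 of 22083 genes were called and *Reg3b* reversed to -3.22. On leaving out 1 sample the log2 fold change ranged from 2.37 to 5.29 for *Reg3b* and 2.74 to 6.85 for *Reg3g*. It ranged from 1.07 to 2.19 for *S100a8* and 1.02 to 2.02 for *Nos2*. The sign changed for *Lcn2* (-1.05 to 0.25), *S100a9* (-0.53 to 1.14), *Duox2* (-1.37 to 0.13) and *Duoxa2* (-1.39 to 0.52), with *S100a9* at -0.12 without WT replicate 2. In these fits the lone sample is assumed to vary like the other genotype. With the replicate number as a block 0 members were called, *Reg3b* having an adjusted p of 0.0729 and *Reg3g* of 0.0541. Across the genes tested the deviations of same-numbered samples had r = 0.06. In 8 of 9 intestinal markers replicate 1 was above replicate 2 in both genotypes. Whether same-numbered samples share more than a number was not tested. Of 79 values of single members other than those in the deposited order, 5 changed sign. Their side of the threshold is not counted, since no gene could pass it in the fits without a WT sample. The causes were not tested. *Saa1*, *Saa3* and *S100a8* had at most 20 counts in any sample, and a floor of 3 counts is 0.0672 to 0.108 CPM.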
